A study of Mus musculus with 6 samples.

Results

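Cholesterol is built from acetyl-CoA through the mevalonate pathway, and the genes of that pathway are switched on by the sterol regulatory element binding proteins (SREBPs), transcription factors that are held in the endoplasmic reticulum membrane while sterols are plentiful. Srebf2 encodes the SREBP best known for sterol synthesis in liver, and Srebf1 encodes the forms best known for fatty acid synthesis. The 8 genes described here were these SREBP genes and 6 enzyme genes of the route to cholesterol (Hmgcs1, Fdps, Fdft1, Sqle, Lss and Tm7sf2), taken by gene name from the deposited peak lists. Their peaks numbered 55 of 70638 in all. HCFC1 is a chromatin coregulator that binds DNA through partner proteins, and ERRα is a nuclear receptor that controls many genes of energy metabolism.

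HCFC1 binding was mapped by chromatin immunoprecipitation and sequencing in Hepa1-6, a mouse hepatoma line labelled as wild type and as hepatocyte. Cells were transfected with a pool of siRNAs against HCFC1 (siHCFC1), against ERRα (siERRa) or with scrambled control siRNAs (siControl), 100 nM at the start and again after 48 h, for 200 nM in total over 96 h. Each condition had 1 HCFC1 library, pooled from 2 separate immunoprecipitations per a note deposited with the lists, so no comparison has a replicate check and no test was made. The files hold peak positions and no expression values, so neither the cell type's markers nor the extent of either knockdown could be checked.

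The siHCFC1 list held 12610 peaks, the siERRa list 21881 and the siControl list 36147. Median peak widths were 466 bp, 711 bp and 394 bp in the same order, and median peak scores were 36, 59 and 35. The score is the authors' own value for a peak, on a scale that is not stated, and it is used here only to describe and rank peaks within a list. Read numbers are not part of the lists, so depth is unknown, and list length cannot be told apart from depth. A start-site peak is one whose deposited distance to a transcription start is at most 1000 bp, and 2 peaks overlap when they share at least 1 bp. For comparison, siControl start-site peaks were split by score into 10 bins of about equal size. All positions are on mm10 and are printed as deposited.

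Every one of the 8 genes had a start-site HCFC1 peak in the siERRa list, 5 had one in the siHCFC1 list and 7 had one in the siControl list. Among 21900 protein-coding genes the share with a start-site peak was 29.3% in siHCFC1, 45.1% in siERRa and 44.2% in siControl cells. Fdps carried by far the strongest peaks of the group in all 3 lists, and the siERRa list held the only peak named for Lss. Hmgcs1, Fdft1 and Lss had no start-site peak in siHCFC1 cells. The median over genes of the highest start-site score was 52 in siHCFC1 cells (5 genes), 128.5 in siERRa cells (8 genes) and 106 in siControl cells (7 genes), against 50, 183 and 106 over all protein-coding genes with such a peak.

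**Figure D1:**
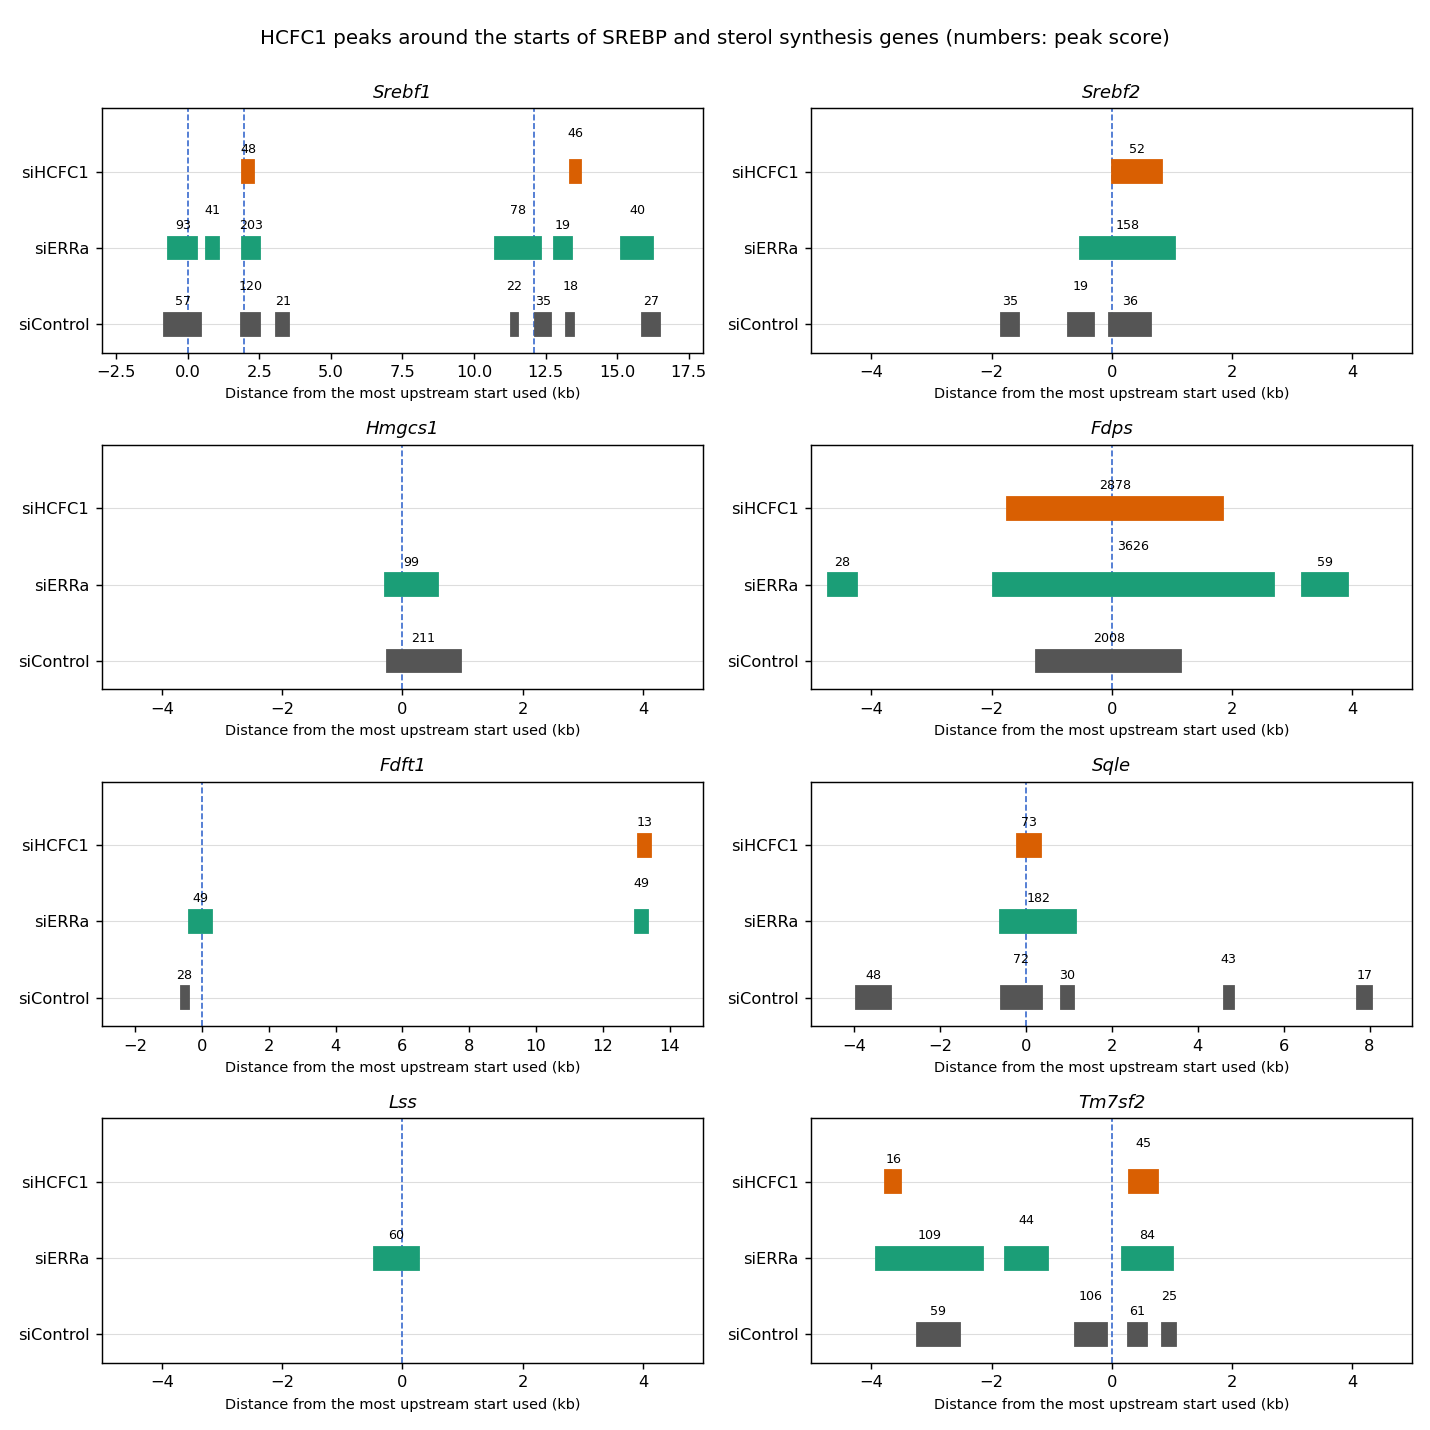
Each panel shows the HCFC1 peaks of 1 gene as bars drawn to width, with the distance in kb from the most upstream start used on the x axis, the siHCFC1, siERRa and siControl lists from top to bottom, and the authors' score above each bar; dashed lines are transcription starts. Fdps has a wide peak across its start in all 3 lists (scores 2878, 3626 and 2008), Lss has a peak in the siERRa list only (60), and Hmgcs1 has none in the siHCFC1 list; peaks of Srebf1 and Sqle beyond the drawn window are not shown.

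Promoter sequences show where these peaks lay on the DNA. RefSeq promoter sequences (GRCm38.p6, the assembly of mm10), from 250 bases before to 50 after a start, were matched for 5 of the 8 genes, which had 7 starts. All 7 are printed below in the direction of transcription, because peak coverage of each window differed between the lists. Capitals mark exact matches, on either strand, to the sterol regulatory element core TCACCCCAC, the CCAAT box CCAAT, the GC box GGGCGG or the nuclear receptor half-site AGGTCA.
Hmgcs1, chr13:119690101-119690400, plus strand: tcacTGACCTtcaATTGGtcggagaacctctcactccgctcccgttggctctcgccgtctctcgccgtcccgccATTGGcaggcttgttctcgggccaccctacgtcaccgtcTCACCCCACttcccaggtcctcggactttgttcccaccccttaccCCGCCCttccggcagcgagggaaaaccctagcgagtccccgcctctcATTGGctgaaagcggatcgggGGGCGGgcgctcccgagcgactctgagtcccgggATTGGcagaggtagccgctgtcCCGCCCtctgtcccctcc
Srebf2, chr15:82147019-82147318, plus strand: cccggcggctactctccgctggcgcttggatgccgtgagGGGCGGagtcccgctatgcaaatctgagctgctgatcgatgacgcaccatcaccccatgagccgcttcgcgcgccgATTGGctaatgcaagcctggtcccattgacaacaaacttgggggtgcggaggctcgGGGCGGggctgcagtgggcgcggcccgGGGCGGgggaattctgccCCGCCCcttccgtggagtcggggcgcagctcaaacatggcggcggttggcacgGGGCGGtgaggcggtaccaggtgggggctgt
Srebf1, upstream start, chr11:60222532-60222831, minus strand: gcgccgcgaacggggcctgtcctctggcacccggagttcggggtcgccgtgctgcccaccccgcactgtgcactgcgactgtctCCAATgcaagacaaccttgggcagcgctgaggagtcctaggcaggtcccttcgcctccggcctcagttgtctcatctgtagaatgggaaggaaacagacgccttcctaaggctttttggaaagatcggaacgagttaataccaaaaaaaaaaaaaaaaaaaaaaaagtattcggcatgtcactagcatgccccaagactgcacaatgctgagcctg
Srebf1, middle start, chr11:60220578-60220877, minus strand: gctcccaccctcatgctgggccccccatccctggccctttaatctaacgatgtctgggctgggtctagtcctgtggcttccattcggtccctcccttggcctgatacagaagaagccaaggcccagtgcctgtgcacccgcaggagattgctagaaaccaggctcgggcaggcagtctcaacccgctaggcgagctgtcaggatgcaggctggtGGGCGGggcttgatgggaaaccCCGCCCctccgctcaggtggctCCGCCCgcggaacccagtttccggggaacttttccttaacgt
Srebf1, downstream start, chr11:60210422-60210721, minus strand: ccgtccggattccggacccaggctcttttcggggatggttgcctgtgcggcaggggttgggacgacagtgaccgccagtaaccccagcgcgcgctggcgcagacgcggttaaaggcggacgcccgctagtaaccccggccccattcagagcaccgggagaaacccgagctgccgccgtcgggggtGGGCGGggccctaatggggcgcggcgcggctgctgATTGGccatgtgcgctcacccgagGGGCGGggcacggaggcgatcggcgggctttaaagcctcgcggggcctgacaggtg
Lss, chr10:76531355-76531654, plus strand: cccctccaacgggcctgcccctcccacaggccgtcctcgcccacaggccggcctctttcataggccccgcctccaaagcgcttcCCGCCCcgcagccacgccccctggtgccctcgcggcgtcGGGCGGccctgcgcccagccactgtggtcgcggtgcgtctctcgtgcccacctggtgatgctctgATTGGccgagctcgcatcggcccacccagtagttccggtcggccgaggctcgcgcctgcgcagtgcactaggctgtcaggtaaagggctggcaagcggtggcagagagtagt
Tm7sf2, chr19:6067801-6068100, minus strand: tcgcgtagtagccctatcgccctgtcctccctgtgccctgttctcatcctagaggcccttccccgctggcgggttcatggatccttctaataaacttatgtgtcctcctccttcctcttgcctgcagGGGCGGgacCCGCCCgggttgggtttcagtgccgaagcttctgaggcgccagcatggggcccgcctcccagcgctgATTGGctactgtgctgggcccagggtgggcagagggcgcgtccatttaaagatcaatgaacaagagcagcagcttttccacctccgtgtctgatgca

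The coverage of these windows of 300 bases by peaks differed between the lists. Peak widths over all peaks differed too, with medians of 466 bp in siHCFC1, 711 bp in siERRa and 394 bp in siControl cells. Coverage over all promoters was not computed, and each list came from 1 library. At Hmgcs1 no base was covered in the siHCFC1 list, against 300 in the siERRa list and 300 in the siControl list. The Srebf2 window was covered over 39 bases in siHCFC1, 300 in siERRa and 97 in siControl cells. At the middle start of Srebf1 the covered length was 110 bases in siHCFC1, 123 in siERRa and 159 in siControl cells. The upstream Srebf1 window was covered over no base in siHCFC1 cells, against 300 in siERRa and 300 in siControl cells, and the downstream window over none in siHCFC1, 300 in siERRa and 47 in siControl cells. The Lss window was covered over all 300 bases in siERRa cells and over none in siHCFC1 or siControl cells. For Tm7sf2 the order was the other way, with no base covered in siHCFC1 or siERRa cells and 173 in siControl cells.

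The sterol regulatory element core TCACCCCAC was found at 1 of the 7 starts, that of Hmgcs1, where it began 137 bases before the start. It is in 0.551% of 32851 promoters of the same length. A CCAAT box, the binding site of NF-Y, stood in 6 of the 7 windows, against 37.4% of all promoters, and the GC box bound by SP1-type factors stood in 6 of 7, against 35.7%. The half-site AGGTCA was found in the Hmgcs1 window only, against 16.3% of promoters. None of the 7 windows held the E-box CACGTG (7.15% of promoters), the ERR element TCAAGGTCA (0.423%), the ACTACAA letters of the HCFC1 partners ZFP143 and THAP11 (3.24%), the ETS site CCGGAAGT (3.89%), the YY1 site AAGATGGC (2.75%) or the NRF1 site GCGCATGC (2.71%). Both strands were searched, AGGTCA is also the end of the ERR element, and a match or its absence describes only the letters of the window.

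Srebf1 had the largest number of peaks, 2 in siHCFC1, 6 in siERRa and 12 in siControl cells, spread over 3 starts. On chromosome 11, the start nearest the strongest peak is the middle one. That peak lay at 60220270 to 60220687 in siHCFC1 cells (score 48, rank 4260 of 12610), at 60220068 to 60220700 in siERRa cells (203, rank 5195 of 21881) and at 60220061 to 60220736 in siControl cells (120, rank 5034 of 36147). Its centre was 149 bp, 243 bp and 229 bp after the start in the same order, so the middle start was occupied in every condition. The deposited label put it in exon 1 of a Srebf1 transcript in siHCFC1 cells, and in intron 1 of a longer transcript in the other lists.

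The outer starts of Srebf1 had peaks in the siERRa and siControl lists and none in the siHCFC1 list. At the upstream start, the peak scored 93 in siERRa cells (60222256 to 60223254) and 57 in siControl cells (60222112 to 60223413), centred 174 bp and 181 bp before the start. At the downstream start, a siERRa peak (60210237 to 60211861, score 78) overlapped 2 siControl peaks with scores of 35 and 22. The siHCFC1 list came no nearer to that start than a peak centred 1438 bp after it (60208837 to 60209230, score 46), outside the limit of 1000 bp. This last peak overlapped a siERRa peak (score 19) and a siControl peak (score 18) in intron 1. Just inside the limit was a siERRa peak centred 989 bp after the downstream start, and just outside was the siControl peak at 1249 bp. The siControl start-site peaks with scores of 57, 35 and 22 fell in the score bins of 51 to 68, 28 to 37 and 13 to 27. Of all start-site peaks in those bins, 38.2%, 19.5% and 16.2% were overlapped in siHCFC1 cells. In siERRa cells the shares were 91.7%, 64.9% and 56.5%.

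Another 5 of the 12 siControl peaks named for Srebf1 were placed in its neighbour Tom1l2, 7408 to 62454 bp upstream of the nearest Srebf1 start. Their scores ran between 18 and 34, and none was overlapped in either knockdown list. In total, 2 of the 12 siControl peaks were overlapped in siHCFC1 cells and 6 in siERRa cells. A siERRa peak between the upstream and middle starts (60221480 to 60221952, score 41) had no siControl counterpart, the nearest being 159 bp away.

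Srebf2 had a start-site peak in all 3 conditions. On chromosome 15, the peak lay at 82147280 to 82148106 in siHCFC1 cells (score 52, rank 3854 of 12610), at 82146742 to 82148321 in siERRa cells (158, rank 6149 of 21881) and at 82147222 to 82147914 in siControl cells (36, rank 17373 of 36147). All were labelled intron 1, and the centres were 424 bp, 262 bp and 299 bp after the start. The siERRa peak spanned 1580 bp and also overlapped, in part, a weak siControl peak 513 bp before the start (score 19). A siControl peak 1694 bp upstream, between genes (score 35), had no counterpart in either knockdown list. The siControl start-site peak belonged to a score bin (28 to 37) in which 19.5% of start-site peaks were overlapped in siHCFC1 cells and 64.9% in siERRa cells, and it was overlapped in both.

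Hmgcs1 encodes the cytosolic HMG-CoA synthase, an early enzyme of the mevalonate pathway. It had no peak in siHCFC1 cells, 1 in siERRa cells (chromosome 13, 119690059 to 119690937, score 99, rank 7995 of 21881) and 1 in siControl cells (119690088 to 119691317, score 211, rank 3123 of 36147). The siERRa peak was centred 147 bp after the start and labelled 5′ UTR, and the siControl peak was centred 351 bp after it and labelled intron 1. The nearest siHCFC1 peak lay 64518 bp from the siControl peak, at Nim1k. Start-site peaks with a similar score (176 to 292) were overlapped in siHCFC1 cells in 903 of 1126 cases (80.2%), so the Hmgcs1 peak was in the minority of its score range. In siERRa cells all 1126 were overlapped.

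**Figure D2:**
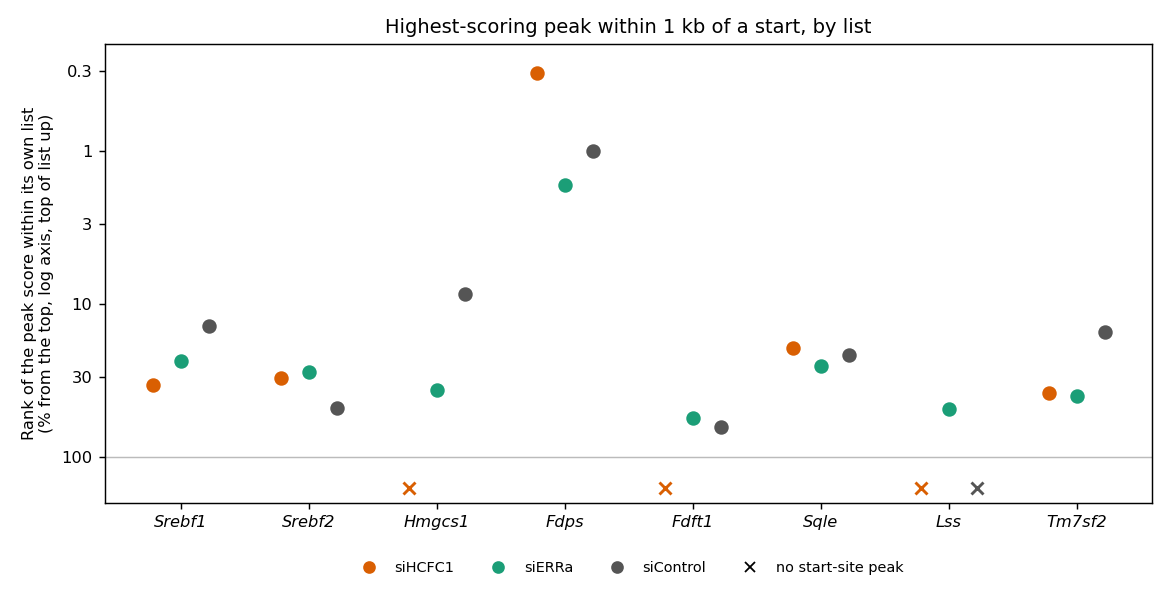
For each gene, points give the rank of the highest-scoring peak within 1 kb of a start, as a percentage from the top of its own list on a log axis with the top of the list up, for siHCFC1, siERRa and siControl cells from left to right; crosses mark no such peak. Fdps lies at 0.309%, 1.67% and 0.996%, and the other genes with a peak lie between 8.64% and 63.6%; ranks from lists of different lengths do not show a change.

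Fdps encodes farnesyl pyrophosphate synthase, whose product feeds sterols, dolichol, ubiquinone and protein prenylation. Its start-site peak, on chromosome 3, lay at 89100120 to 89103704 in siHCFC1 cells (score 2878, rank 39 of 12610), at 89099269 to 89103950 in siERRa cells (3626, rank 366 of 21881) and at 89100812 to 89103224 in siControl cells (2008, rank 360 of 36147). The peak was among the strongest of each list. Its width was 3585 bp in siHCFC1, 4682 bp in siERRa and 2413 bp in siControl cells, with centres 55 bp after, 358 bp after and 51 bp before the start. The deposited label was promoter in siHCFC1 and siControl cells but intron 1 in siERRa cells. In the top score bin (707 and above), 99.7% of siControl start-site peaks were overlapped in siHCFC1 cells and 100% in siERRa cells. The siERRa list held 2 further Fdps peaks without a siControl counterpart, in intron 3 (score 59) and 4477 bp upstream (score 28).

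Fdft1 encodes squalene synthase, the enzyme of the step that commits the pathway to sterols. At its start on chromosome 14, siHCFC1 cells had no peak, siERRa cells had a peak at 63177604 to 63178281 (score 49, centred 55 bp before the start) and siControl cells one at 63178292 to 63178529 (score 28, centred 523 bp before it). These 2 peaks were separated by 10 bp, so the siControl peak counted as not overlapped. In its score bin (28 to 37) 19.5% of start-site peaks were overlapped in siHCFC1 cells and 64.9% in siERRa cells. Within intron 1, both knockdown lists had a peak that the siControl list lacked, at 63164441 to 63164850 in siHCFC1 cells (score 13, rank 12183 of 12610) and at 63164539 to 63164934 in siERRa cells (score 49, rank 12254 of 21881). Those peaks overlapped each other and were centred 13242 bp and 13151 bp after the start.

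Sqle, which encodes squalene epoxidase, an oxygen-dependent enzyme of the pathway, had a start-site peak in every condition. On chromosome 15 it lay at 59314885 to 59315444 in siHCFC1 cells (score 73, rank 2462 of 12610), at 59314494 to 59316267 in siERRa cells (182, rank 5601 of 21881) and at 59314510 to 59315464 in siControl cells (72, rank 7783 of 36147). The siERRa peak also covered a siControl peak in exon 1 (score 30, 968 bp after the start). The siHCFC1 and siERRa lists had no other Sqle peak, while the siControl list had 5 more, with scores of 17 to 48. Of those 5, a pair lay in introns 2 and 4 of Sqle, a pair in introns of Washc5, and the last in a non-coding transcript listed under Zfp572, 3550 bp before the start.

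Lss encodes lanosterol synthase, which closes the sterol ring system. The only peak named for it was in siERRa cells, at 76531133 to 76531874 on chromosome 10 (score 60, rank 10690 of 21881), centred 102 bp before the start. No siHCFC1 peak lay within 61984 bp of it and no siControl peak within 61666 bp, both distances being to peaks at Mcm3ap. In the siERRa list, 40.5% of all peaks, at any distance from a start, had no siControl counterpart. The share among siERRa start-site peaks alone was not computed.

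Tm7sf2 encodes a sterol reductase of the later pathway, and its start lies 8 bp from the end of Vps51 in the gene table, so several of its peaks carry Vps51 labels. Just downstream of the start, on chromosome 19, a peak lay at 6067080 to 6067559 in siHCFC1 cells (score 45, rank 4808 of 12610), at 6066839 to 6067677 in siERRa cells (84, rank 8795 of 21881) and at 6067267 to 6067586 in siControl cells (61, rank 9162 of 36147). The siERRa peak also overlapped part of a weaker siControl peak (score 25). By contrast the highest-scoring siControl peak, at 6067928 to 6068464 (score 106, rank 5575 of 36147, 346 bp before the start), was overlapped in neither knockdown list. The nearest peak was 368 bp away in siHCFC1 and 250 bp away in siERRa cells. In its score bin (91 to 123), 58.1% of start-site peaks were overlapped in siHCFC1 cells and 98.9% in siERRa cells. When peaks within 500 bp were joined, this peak became part of a region that both knockdown lists overlapped. Farther upstream, within Vps51, the score was 109 in siERRa cells (6069994 to 6071773) and 59 in siControl cells (6070378 to 6071095), and a siHCFC1 peak (6071349 to 6071623, score 16) fell 253 bp beyond the siControl peak.

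Over the whole group, 6 of 29 siControl peaks (20.7%) were overlapped in siHCFC1 cells, against 22.3% of all siControl peaks. In siERRa cells the count was 15 of 29 (51.7%), against 40.6% of all siControl peaks. Among start-site peaks it was 5 of 14 in siHCFC1 cells, where the share of all start-site peaks was 55.4%, and 12 of 14 in siERRa cells, where it was 88.6%. Start-site peaks of the same score bins as these 14 were overlapped at a mean of 39.4% in siHCFC1 cells and 79.1% in siERRa cells. All 6 peaks overlapped in siHCFC1 cells were also overlapped in siERRa cells, 9 were overlapped in siERRa cells only, 0 in siHCFC1 cells only, and 14 in neither. Over all siControl peaks these classes held 20.7% (both), 19.9% (siERRa only), 1.52% (siHCFC1 only) and 57.9% (neither), against 20.7%, 31.0%, 0% and 48.3% of the 29. Of the 15 siControl peaks farther than 1000 bp from a start, 1 was overlapped in siHCFC1 cells (6.67%, against 7.11% of all such siControl peaks) and 3 in siERRa cells (20.0%, against 18.6%).

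The group's peaks had a median width of 449 bp in siHCFC1, 807.5 bp in siERRa and 412 bp in siControl cells. Over all peaks the medians were 466 bp, 711 bp and 394 bp in the same order. At Srebf1, Srebf2, Sqle and Tm7sf2, 4 siERRa peaks each overlapped 2 siControl peaks. The share of all siERRa peaks that did so was not computed. With reciprocal overlap of at least 50%, 5 of 29 siControl peaks were overlapped in siHCFC1 cells and 5 of 29 in siERRa cells, so the counts no longer differed between the knockdowns. Over all siControl peaks the shares under this rule were 11.8% in siHCFC1 and 25.2% in siERRa cells. With peak centres within 200 bp the count was 6 of 29 in both, against 13.3% of all siControl peaks in siHCFC1 and 22.1% in siERRa cells. The part of peak width in the overlap counts was not tested.

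**Figure D3:**
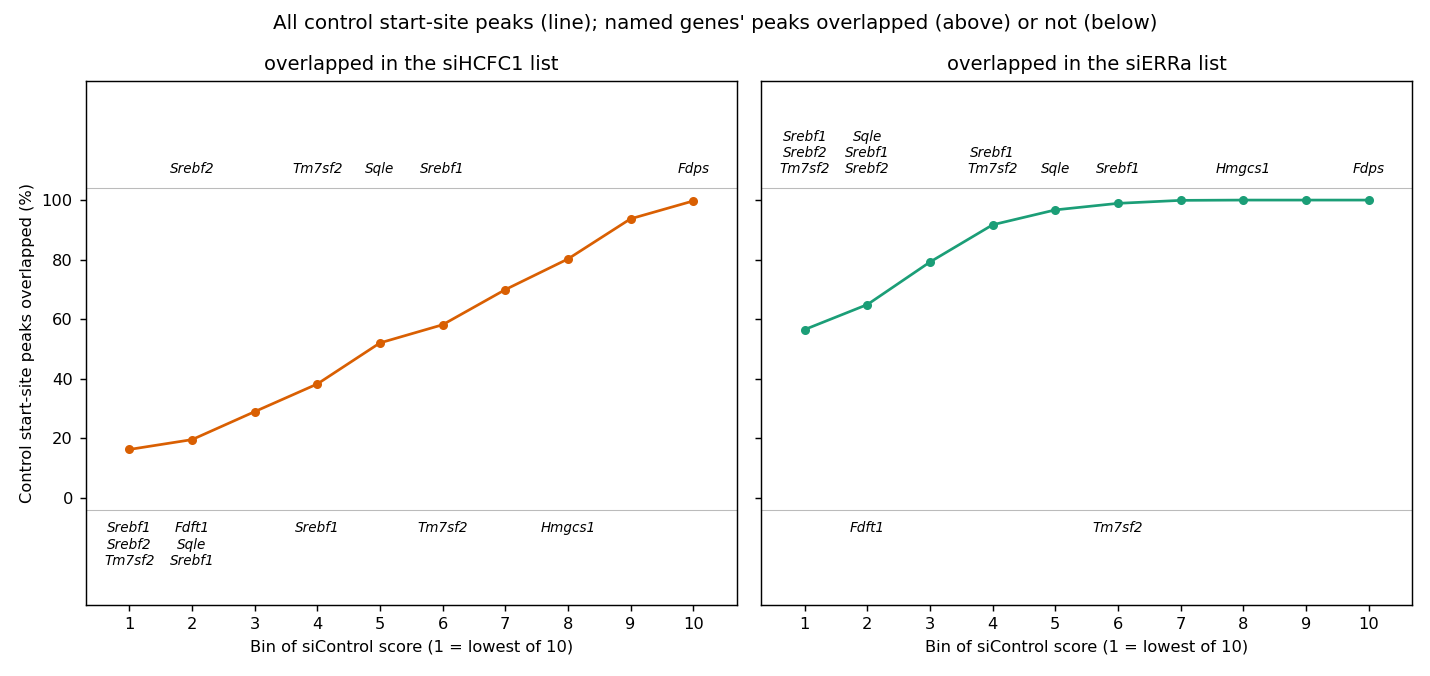
Lines give the percentage of all siControl start-site peaks overlapped in the siHCFC1 list (left) and the siERRa list (right), in 10 bins of siControl score from lowest to highest; gene names above or below the lines mark the group's own siControl start-site peaks that were or were not overlapped. The Hmgcs1 peak in bin 8, where 80.2% of peaks were overlapped in siHCFC1 cells, and the Tm7sf2 peak in bin 6, where 98.9% were overlapped in siERRa cells, lie among those not overlapped.

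In the other direction, 2 of 8 siHCFC1 peaks of the group had no siControl counterpart, against 34.1% of all siHCFC1 peaks, and 7 of 18 siERRa peaks had none, against 40.5% of all siERRa peaks. Every one of the 8 siHCFC1 peaks overlapped a siERRa peak, while 71.1% of all siHCFC1 peaks did. Conversely, 8 of the 18 siERRa peaks overlapped a siHCFC1 peak, against 36.9% of all siERRa peaks. Both knockdown lists are set against the same siControl library, so their differences from it are not independent of each other.

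The 61 other pathway genes were read in 4 lists. Of all protein-coding genes, 29.3% had a start-site peak in siHCFC1, 45.1% in siERRa and 44.2% in siControl cells. Among 17 further sterol synthesis enzymes, 3 had a start-site peak in siHCFC1 cells, 11 in siERRa cells and 11 in siControl cells. The siControl start-site peak was overlapped for 2 of those 11 genes in siHCFC1 cells, where 60.4% of all protein-coding genes with such a peak had it overlapped, and for 10 of 11 in siERRa cells, where the share was 92.2%. These shares over all genes were not matched for score. The median siControl score of the 11 was 61, against 106 over all protein-coding genes with such a peak. In the score bin of 51 to 68, 38.2% of siControl start-site peaks were overlapped in siHCFC1 cells and 91.7% in siERRa cells. Lbr, a sterol reductase of the nuclear envelope, had an overlapped peak in both knockdown lists and scored 41 in siHCFC1, 256 in siERRa and 163 in siControl cells. Idi1, the isopentenyl diphosphate isomerase, had no siHCFC1 peak, a siERRa score of 48 and a siControl score of 117. Erg28 had a siControl score of 91, Hsd17b7 of 72 and Acat2 of 61, and none of these peaks was overlapped in siHCFC1 cells; that of Acat2 was not overlapped in siERRa cells either. Mvd, the mevalonate diphosphate decarboxylase, had start-site peaks in both knockdown lists (20 in siHCFC1 and 67 in siERRa cells) and none in siControl cells, and Pmvk, the phosphomevalonate kinase, had one in siERRa cells only (37).

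Of 13 genes that regulate the SREBPs, 9 had a start-site peak in siHCFC1, 13 in siERRa and 10 in siControl cells. The shares of all protein-coding genes were 29.3%, 45.1% and 44.2% in the same order. The siControl peak was overlapped for 8 of 10 in siHCFC1 and 10 of 10 in siERRa cells. Over all protein-coding genes with such a peak, not matched for score, the shares were 60.4% and 92.2%. Of siControl start-site peaks scoring 124 to 175, the bin of this group's median, 69.9% were overlapped in siHCFC1 cells and 99.9% in siERRa cells. The median siControl score of these regulators was 162.5, against 106 over all protein-coding genes with such a peak. The highest was that of Ubxn4, a factor of protein degradation at the endoplasmic reticulum (850 in siHCFC1, 3075 in siERRa and 1633 in siControl cells), followed by the ubiquitin ligase Rnf139 (76, 658 and 378). Mbtps2, a protease that releases SREBPs from the membrane, had no peak in siHCFC1 cells, against 541 in siERRa and 317 in siControl cells. Scap, the sterol-sensing escort of SREBPs, had no peak in siHCFC1 cells, against 503 in siERRa and 76 in siControl cells. In the score bin of Mbtps2 (293 to 706), 93.7% of siControl start-site peaks were overlapped in siHCFC1 cells. In that of Scap (69 to 90), the share was 52.0%. Nr1h2, which encodes an LXR oxysterol receptor, scored 84 in siHCFC1, 582 in siERRa and 202 in siControl cells, and its relative Nr1h3 had a start-site peak in siERRa cells only (29).

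Some start-site peaks listed for a gene in a knockdown list alone overlapped a siControl peak under another name or beyond the limit of 1000 bp. The siERRa peak of Ufd1 (score 3082) overlapped a siControl peak assigned to its neighbour Cdc45 (score 1696), and the siHCFC1 and siERRa peaks of Fbxw7 (84 and 945) overlapped a siControl peak of Fbxw7 centred outside the limit of 1000 bp (score 416). The siERRa start-site peaks of Elovl6 and Me1 also overlapped siControl peaks under other names, whereas those of Lss, Pmvk, Mvd, Nr1h3 and Npc1 overlapped none.

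Of 17 genes of cholesterol uptake, storage and efflux, 4 had a start-site peak in siHCFC1, 13 in siERRa and 11 in siControl cells, with a median siControl score of 45. Of all protein-coding genes, 29.3% had a start-site peak in siHCFC1, 45.1% in siERRa and 44.2% in siControl cells, with a median siControl score of 106. For these transport genes the siControl peak was overlapped for 4 of 11 in siHCFC1 and 11 of 11 in siERRa cells. The shares over all protein-coding genes with such a peak, not matched for score, were 60.4% and 92.2%. In the score bin of the median of 45 (38 to 50), 28.9% of siControl start-site peaks were overlapped in siHCFC1 cells and 79.2% in siERRa cells. The sterol exporter gene Abca1 scored 72 in siERRa and 77 in siControl cells with no start-site peak in siHCFC1 cells. Mylip, a ubiquitin ligase gene, scored 22 in siHCFC1, 88 in siERRa and 83 in siControl cells, and the HDL receptor gene Scarb1 scored 24, 269 and 66 in the same order. Npc1, which encodes a lysosomal cholesterol transporter, had a start-site peak in siERRa cells only (70). The peaks of Lrp1 (50) and Abcg1 (45) in siControl cells were not overlapped in siHCFC1 cells.

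Among 14 genes of fatty acid synthesis, 5 had a start-site peak in siHCFC1, 10 in siERRa and 9 in siControl cells, with a median siControl score of 86. Of all protein-coding genes, 29.3% had a start-site peak in siHCFC1, 45.1% in siERRa and 44.2% in siControl cells. For the fatty acid genes the siControl peak was overlapped for 4 of 9 in siHCFC1 and 8 of 9 in siERRa cells. The shares over all protein-coding genes with such a peak, not matched for score, were 60.4% and 92.2%. In the score bin of the median of 86 (69 to 90), 52.0% of siControl start-site peaks were overlapped in siHCFC1 cells and 96.7% in siERRa cells. Acly, which makes the cytosolic acetyl-CoA for both lipid routes, scored 315 in siHCFC1, 2546 in siERRa and 1115 in siControl cells. Fasn, the fatty acid synthase gene, scored 17, 185 and 138, and the desaturase gene Fads1 scored 39, 133 and 111, both in the same order. Elovl5 (100), Acss2 (86), Scd2 (55) and Scd1 (41) had siControl peaks without an overlap in siHCFC1 cells, and that of Scd1 was not overlapped in siERRa cells either. No peak in any list was named for 6 of the 61 genes.

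**Figure D4:**
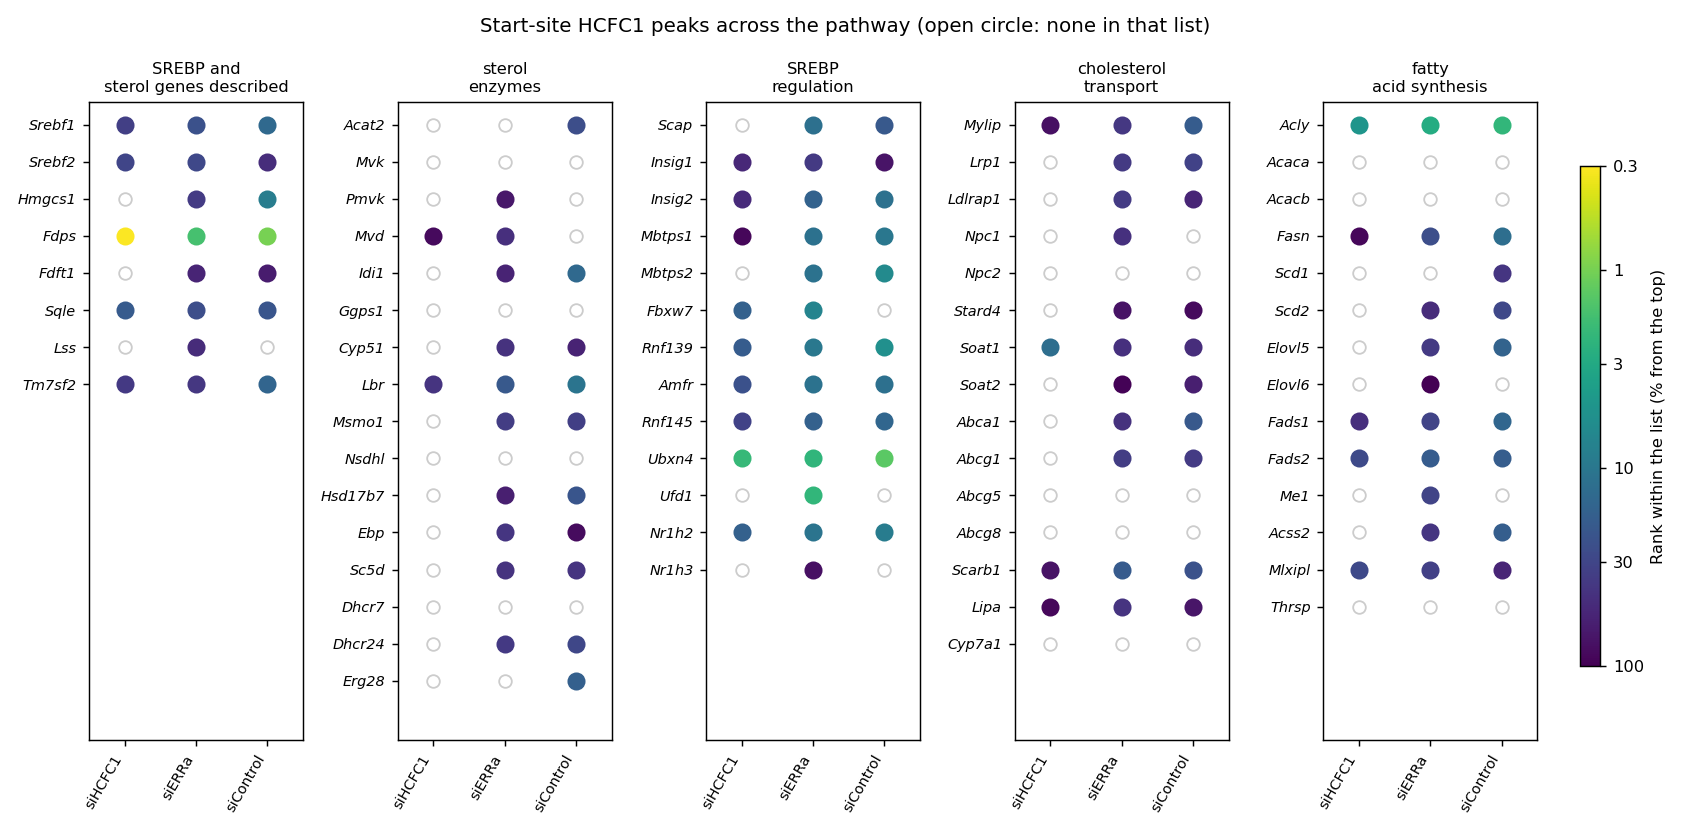
Each dot is a gene, of those drawn, in the siHCFC1, siERRa or siControl list (left to right within a panel), coloured by the rank of its highest start-site peak as a percentage from the top of that list on a log colour scale; open circles mark no start-site peak. Of the 13 SREBP regulators, 9 have a filled dot in siHCFC1, 13 in siERRa and 10 in siControl cells, and of the 14 genes of fatty acid synthesis 5, 10 and 9 do in the same order. Of all protein-coding genes, 29.3%, 45.1% and 44.2% have a start-site peak in that order.

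Genes with the most similar pattern were found by the summed absolute difference, over the 3 lists, in rank percentage of the highest start-site peak, with a gene that had no such peak in a list entered at 100%. Fdps lay nearest to Chchd6 (0.516 percentage points) and Smpd3 (0.613), and Srebf1 to Zfhx3 (0.425) and Fam3c (2.94). For Srebf2 the nearest were Vamp2 (4.98) and Bhlhe22 (6.0), for Sqle Chd7 (2.19) and Lrp11 (3.23), and for Tm7sf2 Rnf39 (1.52) and Klhl23 (3.73). Hmgcs1, with no peak in siHCFC1 cells, lay nearest to Cbwd1 (2.18) and Ctsl (2.44). Fdft1, which had a start-site peak in 2 lists, tied with 7 genes, among them Apoo and Cacnb2. Lss, with such a peak in 1 list, tied with 12, among them Btd and Cend1.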

How the data were processed

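A list of annotated peaks from each of the 3 HCFC1 libraries was used as deposited, and the 3 IgG libraries were not analysed here. Per the submitters' processing notes, the tools included HOMER 4.11.1, MACS2 2.1.1.20160309, Picard 2.0.1 and BWA 0.7.12, with the build mm10; their roles are not stated. Scores, as the authors deposited them, are whole numbers of at least 13, and distances to a transcription start are in signed bp, per the file headers. Depth is unknown and filters are not given in the sources used here.

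Peaks were taken by gene name, other genes by gene identifier in the RefSeq gene table of GRCm38.p6 (14405 of 14421 siControl identifiers matched). Ranks give tied scores the best rank. Widths count both end positions. Overlaps were computed in Python 3.11.15 with pandas 2.3.3 and tested on simulated peaks. The 10 score bins of about equal size were formed over the 11343 siControl start-site peaks. Of the other genes, up to 4 with the highest siControl score in each list, up to 4 whose peak was not overlapped in each knockdown list, and those with a start-site peak in a knockdown list alone were named, apart from some genes that enter the counts but are not reported here. The 8 genes, the lists and the rules were chosen with earlier results of these data known. Alternatives are given in the closing section.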

Additional observations from a re-analysis of the deposited data

How the results depend on the processing

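Of 48 values under alternative settings, 32 stayed within 1.5 times of the reported count, 14 were lower and 2 were higher. This tally compares counts and not shares, and some settings change how many genes or peaks are counted. For example, 7 of 9 entered as lower than 15 of 29, and 4 of 9 as unchanged from 6 of 29. The siControl peaks of the group overlapped in siHCFC1 and in siERRa cells were 5 and 5 of 29 with reciprocal overlap of at least 50%, 6 and 6 of 29 with centres within 200 bp (6 and 15 as reported), and 4 and 7 of 9 with lists shortened to 12610 peaks. For the shortened lists, the overlapped share of all siControl peaks was not computed. Under the same 2 overlap rules, 3 and 2 of 8 siHCFC1 peaks and 13 and 12 of 18 siERRa peaks had no siControl peak. With the higher-scoring 50% of each knockdown list, 0 of 6 siHCFC1 and 1 of 10 siERRa peaks had no siControl peak. The shares of all knockdown peaks without a siControl peak were not computed under these settings. The group therefore cannot be set against its whole list there. By the deposited promoter label, 2 genes in siHCFC1, 3 in siERRa and 6 in siControl cells had a promoter peak, so siERRa was then below siControl, and 10, 21 and 20 other pathway genes in siHCFC1, siERRa and siControl cells. Among the 5 genes with a promoter entry, 3, 5 and 4 had a peak within 1000 bp of a start in the same order; fewer genes were counted. The higher-scoring 50% of the siHCFC1 list held a start-site peak for 13 other pathway genes. Apart from the fewer genes or peaks counted, the cause was not tested. The siControl peak of Hmgcs1 was not overlapped in siHCFC1 cells under any of the 7 settings run. The nearest siHCFC1 peak was 64518 bp away, so none of these settings could have given an overlap. In siERRa cells the Hmgcs1 peak was overlapped under all but the rule on centres. No paired analysis was possible because each condition had 1 library.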

Other observations

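Some peaks lay inside these genes but were named for another gene in the lists. Within intron 10 of Srebf2, siERRa cells had a peak at 82184143 to 82184435 on chromosome 15 (score 59) assigned to Mir33, the microRNA gene inside Srebf2, 13833 bp before its start; no such peak was listed in siHCFC1 or siControl cells. At the 3′ part of Srebf1, peaks named for Mir6922 scored 65 and 25 in siERRa cells and 22 in siControl cells. At the end of Tm7sf2, peaks named for Znhit2 scored 616 and 42 in siERRa cells and 387 and 67 in siControl cells, above every peak named for Tm7sf2 itself in the case of the larger of each pair. Exon 20 of Lss held a siERRa peak (score 34) named for 4930483K19Rik. Within Fdps, peaks named for Rusc1 scored 39 in siERRa cells and 23 in siControl cells.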
